A study of Mus musculus with 61 samples.

Results

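Del(CBS2) stembryos lack a single CTCF binding site, CBS2, inside the HoxD gene cluster, and the data below compare transcription in the rest of their genome with wild type. A stembryo, or gastruloid, forms when mouse embryonic stem cells (mES cells) clump together in suspension. The aggregates receive a pulse of the Wnt agonist Chiron and then elongate like a posterior body axis. The members were chosen by genotype and stage: 4 Del(CBS2) libraries, 2 at 96 h and 2 at 120 h after aggregation, and the 6 wild-type libraries numbered 1 to 3 at the same stages, which makes 10 of the 61 RNA-seq libraries. Both genotypes came from EmbryoMax 129/SVEV mES cells. The mutant was made with CRISPR/Cas9 and had the deletion on both alleles. The number of clones behind the line is not given in the sources used here, so that an effect of the deletion and of the clone cannot be told apart. Each library was made from pooled stembryos, which were collected without selection at 96 h but only when they were elongating at 120 h. A wild-type replicate numbered 4 at each stage and the libraries of the wild-type time course were kept out of the controls.

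Hox genes encode transcription factors that give cells their position along the body axis, and the genes of a cluster are switched on one after the other in the order in which they lie on the chromosome. CTCF is a DNA-binding protein that stops the cohesin complex as it extrudes loops of chromatin, so that CTCF sites set which genes and enhancers can meet. Such sites are known for acting on genes nearby on the same chromosome. The comparison with wild type therefore asked which genes outside HoxD differed in Del(CBS2) stembryos, and how close their transcriptomes stayed to wild type. Levels are given as FPKM, which scales fragment counts by transcript length and by the mapped fragments of the library, and fold changes are differences of log2(FPKM + 0.1), Del(CBS2) minus wild type, with the standard error (SE) of a limma fit. This scale understates changes of genes with low levels. In pooled stembryos, fewer cells of a type and less RNA per cell cannot be told apart.

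The depth inferred for the 10 libraries was between 22.5 M and 37.8 M fragments (M, mega), and 13364 to 13726 genes per library had at least 1 FPKM. Wild-type replicate 3 stood apart from replicates 1 and 2 at both stages. Its 5 markers of pluripotent cells (Pou5f1, Nanog, Zfp42, Esrrb and Dppa3) summed to 117 FPKM at 96 h and 93.5 FPKM at 120 h, against 29.9 and 31.6 FPKM at 96 h and 8.38 and 9.31 FPKM at 120 h in the other wild-type libraries. The Del(CBS2) libraries lay between replicate 3 and the other controls, with 39.8 to 44.6 FPKM at 96 h and 16.03 to 17.7 FPKM at 120 h. Markers of presomitic mesoderm were high in every library at 96 h (514 to 673 FPKM in wild type and 502 to 556 FPKM in Del(CBS2)), and markers of somites at 120 h (434 to 497 and 456 to 468 FPKM). Wild-type replicate 4 and the time course were another kind of library: pseudogenes summed to between 5569 and 9205 FPKM in them and to between 107963 and 118218 FPKM in the 10 compared libraries, and genes with at least 1 FPKM in them numbered 11304 to 11935. Levels of these libraries set beside the others, and ages estimated from them, carry this difference, whose part was not tested. The part of wild-type replicate 3 in the results was measured by leaving it out, and values without it are given beside the results that it moves.

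RNA levels do not show the deleted site itself, since no gene was removed. The Hoxd genes serve as the reference at the targeted locus, and none of the 8 that were tested passed the threshold at either stage. Hoxd8, which lies between CBS1 and CBS2, showed the largest fold change among them at 96 h. Its level at 96 h was 2.14, 2.08 and 4.23 FPKM in the wild-type replicates and 0.767 and 0.909 FPKM in Del(CBS2), a log2 fold change of -1.56 (SE 0.45, adjusted p of limma 0.151). At 120 h, Hoxd8 stood at 11.001, 11.5 and 10.6 FPKM in wild type and at 5.20 and 5.57 FPKM in Del(CBS2) (log2 fold change -1.02, SE 0.45, adjusted p of limma 0.565). The groups did not overlap at either stage, as for 28% (96 h) and 25.1% (120 h) of all genes tested, and the adjusted test was missed. Hoxd9 was measured at 0.736, 1.05 and 5.46 FPKM in wild type and at 1.17 and 1.08 FPKM in Del(CBS2) at 96 h, with the controls on both sides of the mutant. Without wild-type replicate 3, its log2 fold change at 96 h turned from -0.52 to 0.32. Its level at 120 h was 12.7, 12.6 and 11.99 FPKM against 7.86 and 8.32 FPKM, and the groups did not overlap. The log2 fold change was -0.61 (SE 0.52, adjusted p of limma 0.936). The anterior genes were near their wild-type level at 96 h, such as Hoxd3 with 29.4, 30.9 and 27.7 FPKM against 32.6 and 30.3 FPKM, and Hoxd4 with 30.8, 35.4 and 28.3 FPKM against 32.3 and 28.9 FPKM. At 120 h, both mutants were below all controls for 4 of the 8 genes (Hoxd1, Hoxd8, Hoxd9 and Hoxd10) and above for 0. Over all genes tested, 11.8% were below and 13.3% above. The other Hox clusters had 4 of 10 (HoxA), 4 of 9 (HoxB) and 3 of 7 (HoxC) genes below, so that such a count was not particular to HoxD. Before adjustment, 3 of the 8 had a p of limma under 0.05 at this stage, beside 7.65% of all genes. The study normalized Hoxd levels by Hoxa and Hoxc genes. It reports for Del(CBS2) at 96 h a clear increase of Hoxd9 and no change of Hoxd8. No such normalization was applied to the values here.

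Across the genome, the mean distance of Del(CBS2) libraries to the 3 controls was no larger than that among the controls, which rested on wild-type replicate 3. The distance of a pair of libraries was taken as the median absolute difference of log2(FPKM + 0.1) over the 17140 genes tested outside HoxD. At 96 h, the mean distance of a mutant library to the controls was 0.146, and that of a wild-type library to the other controls 0.163, a difference of -0.0167. At 120 h, these means were 0.135 and 0.148, a difference of -0.0125. An exact permutation test over the 5 libraries, two-sided, gave p = 1 at both stages, where the smallest p possible with 2 against 3 libraries is 0.1.

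The pairs of libraries show that replicate 3 set the spread of the controls. Wild-type replicates 1 and 2 differed from each other by 0.0801 at 96 h and 0.0773 at 120 h, and from replicate 3 by 0.200 to 0.209 and 0.180 to 0.186. Both Del(CBS2) libraries were 0.102 to 0.130 (96 h) and 0.0969 to 0.113 (120 h) away from wild-type replicates 1 and 2. The distance between the 2 mutant libraries was 0.0863 at 96 h and 0.0907 at 120 h, hence a little smaller than their distance to the nearest controls. Without wild-type replicate 3, the difference turned to 0.0328 at 96 h and 0.0296 at 120 h (exact permutation test, p = 0.333 and 0.167), where 0.167 is the smallest p possible with 2 against 2 libraries.

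**Figure D1:**
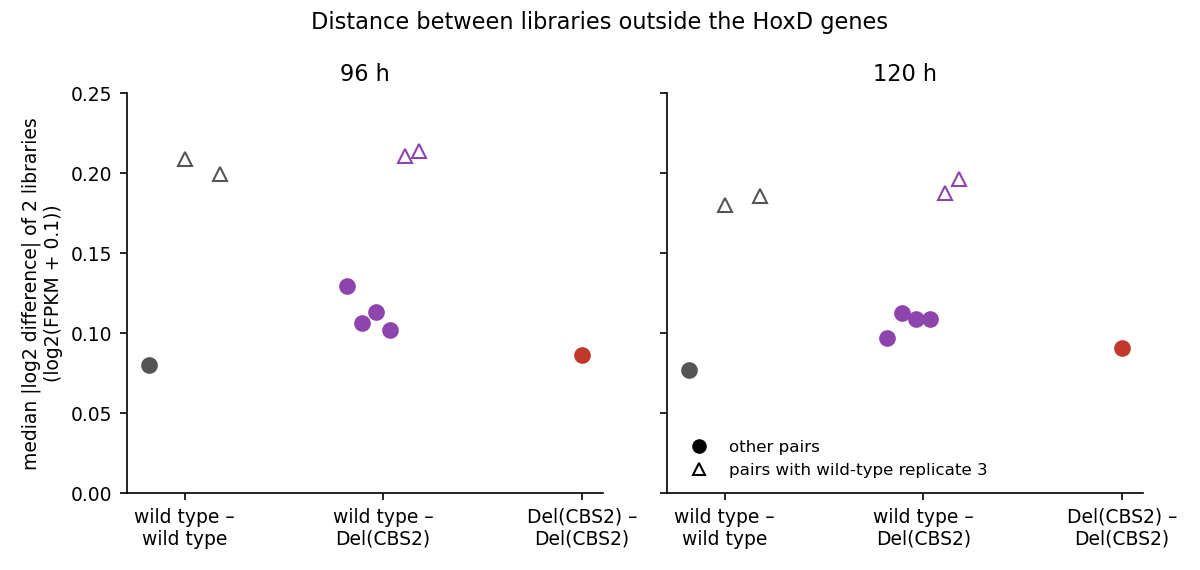
Distance of each pair of libraries at 96 h (left) and 120 h (right), as the median absolute difference of log2(FPKM + 0.1) over 17140 genes outside HoxD. Each symbol is 1 pair, grouped by genotype on the horizontal axis, and triangles mark pairs with wild-type replicate 3, which lie between 0.200 and 0.214 at 96 h and between 0.180 and 0.197 at 120 h.

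The developmental age of the libraries was also close. Estimated against the wild-type time course, both Del(CBS2) libraries at 96 h corresponded to 99 h, and the controls to 101, 100 and 92 h (97.7 ± 4.93 h, SD, n = 3). At 120 h, the mutants were placed at 124 and 126 h and the controls at 126, 126 and 125 h. The differences of 1.33 h at 96 h and -0.667 h at 120 h were within the spread of the libraries (exact permutation test, p = 1 and 0.7). Leaving out wild-type replicate 3 turned the first to -1.5 h.

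For protein-coding genes with at least 1 FPKM in either group, most changes could be bounded. Among 10889 such genes at 96 h, the median absolute log2 fold change was 0.101, and 82.0% of the genes differed by less than 0.25. The 95% interval of the fold change lay within 2-fold in either direction for 9903 genes (90.9%) and within 1.5-fold for 78.2%. At 120 h, the median over 10940 genes was 0.0884, 85.3% differed by less than 0.25, and the interval lay within 2-fold for 10077 genes (92.1%) and within 1.5-fold for 79.6%. A fold change above 2-fold was estimated for 180 genes at 96 h, of which 96 had groups that did not overlap, and for 143 genes at 120 h, of which 50 did not overlap.

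Around the cluster, no protein-coding gene passed the test. Within 1 Mb on either side of HoxD on chromosome 2, 7 protein-coding genes had at least 1 FPKM, and the interval of all 7 lay within 2-fold at both stages. Their log2 fold changes at 96 h ran from -0.22 for Chn1 to 0.03 for Mtx2, with a median of -0.06, and at 120 h from -0.21 for Chn1 to 0.19 for Lnpk, with a median of -0.05. Lnpk and Mtx2 lie on opposite sides of the cluster. Of the 17 genes of any kind tested in this window, 1 passed the threshold at 96 h, the ribosomal RNA gene n-R5s198, which was above 0 in a single Del(CBS2) library, and 0 did so at 120 h, where 0 of the 17 had an unadjusted p of limma under 0.05. A list of 13 tested genes from the wider flanks gave medians of -0.06 and 0.01, with 13 of 13 intervals within 2-fold at both stages. The same held for 13 tested genes of CTCF and cohesin, whose proteins bind or travel to such sites, for 18 genes of the cell cycle and for 19 genes of cholesterol synthesis.

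Over the 17148 genes tested, 55 differed at 96 h in the limma fit (0.321%), of which 33 were higher (0.192%) and 22 lower (0.128%) in Del(CBS2). At 120 h, 43 genes differed (0.251%), 29 higher (0.169%) and 14 lower (0.0816%). Centring each library on its median instead left 16 calls at 120 h, with 31.2% of them higher in place of 67.4%. Before adjustment, 1723 genes (10%) at 96 h and 1311 genes (7.65%) at 120 h had a p under 0.05. The groups did not overlap for 28% of all genes at 96 h and for 25.1% at 120 h, which is the background for counts of such genes below. The adjusted calls were of 3 kinds. At 96 h, 21 of them were small RNA genes, such as microRNA, small nuclear RNA and ribosomal RNA genes, and all 21 were listed at 0 in the 3 controls and above 0 in a single mutant library (10 in replicate 1 and 11 in replicate 2). Another 9 genes were listed at 0 in at least 1 of the 5 libraries. In these tables a 0 cannot be read as absence, since genes such as mt-Nd4l, a subunit of the respiratory chain, are also listed at 0. The authors' tables mark the estimate of 2 genes as failed in 1 or more of the 10 libraries, and mt-Nd4l is not among them. The remaining 25 were above 0 in all 5 libraries. At 120 h, 20 calls were small RNA genes, of which 19 were above 0 in 1 mutant library, another 8 were listed at 0 somewhere, and 15 were above 0 throughout.

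**Figure D2:**
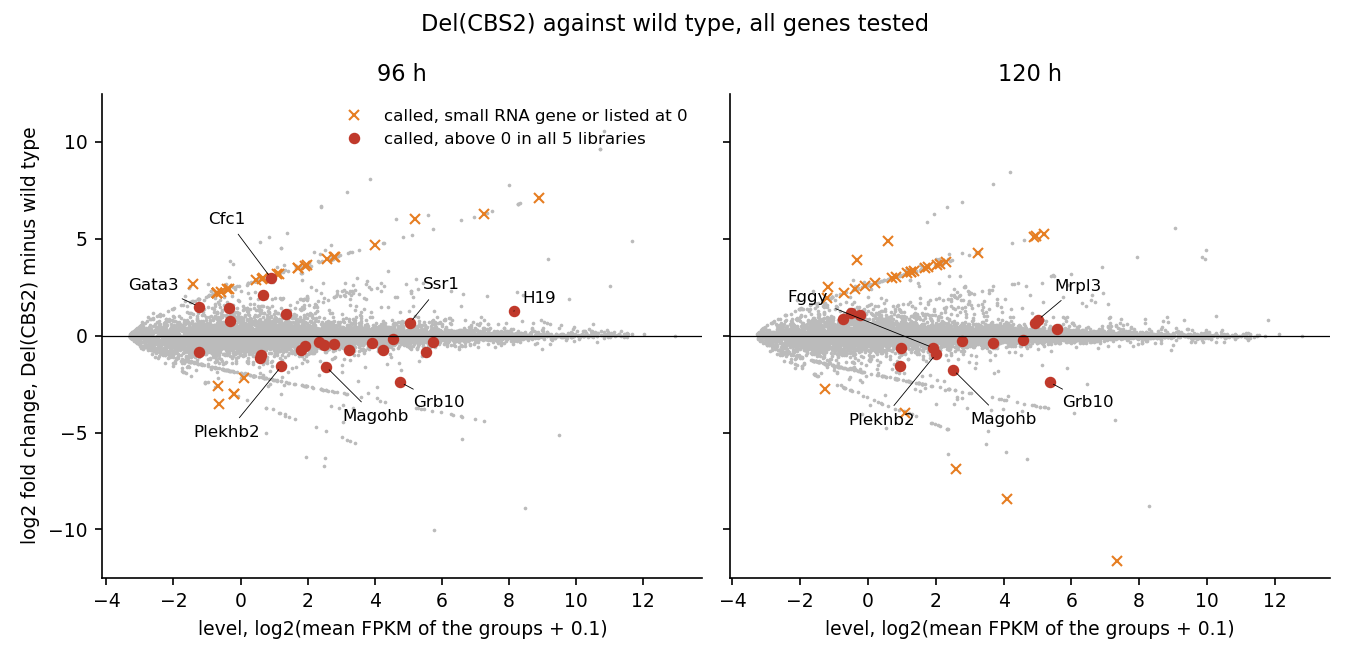
Log2 fold change of each gene tested, Del(CBS2) minus wild type, against its level as log2 of the mean FPKM of both groups + 0.1, at 96 h (left) and 120 h (right). Grey points are genes that were not called, crosses are called genes that are small RNA genes or were listed at 0 in a library, and red points are the 25 (96 h) and 15 (120 h) called genes above 0 in all 5 libraries.

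The called genes above 0 in all libraries moved modestly. At 96 h, 8 rose and 17 fell, between -2.41 and 2.99 on the log2 scale, with a median size of 0.85, and 15 of the 25 changed by less than 2-fold. At 120 h, 6 rose and 9 fell, between -2.41 and 1.17, with a median size of 0.82, and 10 of the 15 stayed under 2-fold. In all 25 and all 15, the groups did not overlap. When small RNA genes and genes listed at 0 were left out, 15356 genes were tested and 9 were called at 96 h (Plekhb2, H19, Hist1h2an, Hist1h2ap, Ssr1, Trim2, Ncoa7, Fdxacb1 and Gm11954) and 2 at 120 h (Fggy and Mrpl3). This exclusion was chosen after seeing the data. The number of calls was 11 at 96 h and 15 at 120 h without wild-type replicate 3.

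3 genes were called at both stages, all lower in Del(CBS2): Plekhb2, Magohb and Grb10. Of the 25 genes at 96 h, 21 had the same sign at 120 h, and of the 15 genes at 120 h, 13 had the same sign at 96 h. The same share over all genes was not counted, and wild-type replicate 3 stood apart at both stages. These counts therefore do not measure how far the effect of the deletion persisted.

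Plekhb2 encodes a pleckstrin homology domain protein of endosomes (chromosome 1, 34849976 to 34879580, mm10, plus strand). At 96 h, its level was 2.53, 2.32 and 5.50 FPKM in wild type and 0.922 and 1.08 FPKM in Del(CBS2), a log2 fold change of -1.58 (SE 0.20, adjusted p of limma 6.11e-05). It remained lower at 120 h, with 4.45, 4.51 and 6.72 FPKM against 2.38 and 2.85 FPKM (-0.95, SE 0.20, adjusted p of limma 0.0454). Both mutant libraries were below every control at each stage. Plekhb2 kept its call at 96 h without wild-type replicate 3 (-1.20, adjusted p of limma 5.44e-05) and lost it at 120 h (-0.76, adjusted p 0.182). In the other lines with data at 96 h, the nearest level was 1.78 to 1.83 FPKM in Del(d1-d4), a line without Hoxd1 to Hoxd4.

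Magohb, a subunit of the exon junction complex that marks spliced mRNA (chromosome 6, 131284388 to 131293244, minus strand), fell at both stages. The controls held 5.405, 4.43 and 17.6 FPKM at 96 h and the mutants 2.31 and 2.49 FPKM (-1.61, SE 0.35, adjusted p of limma 0.0397). At 120 h, they held 5.82, 5.50 and 15.7 FPKM against 2.44 and 2.09 FPKM (-1.77, SE 0.35, adjusted p 0.0262). Magohb overlaps the processed pseudogene Gm44958 on the same strand. Replicate 3 was the highest control both times, and without it the differences were -0.999 (adjusted p 0.166) and -1.29 (adjusted p 0.0948). A level as low was also seen in Del(d1-d4), with 1.65 to 2.12 FPKM at 96 h and 1.49 to 1.55 FPKM at 120 h.

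Imprinted genes are transcribed from the copy of 1 parent, and Grb10 and H19 of this kind were among the calls. Grb10, an imprinted adaptor protein that dampens insulin and growth factor receptor signalling (chromosome 11, 11930508 to 12038683, minus strand), stood at 19.95, 19.1 and 105 FPKM in wild type at 96 h and at 6.72 and 6.03 FPKM in Del(CBS2). At 120 h, the wild-type levels were 21.8, 22.1 and 178 FPKM and the mutant levels 8.0004 and 8.48 FPKM. The log2 fold change was -2.41 at both stages (SE 0.54, adjusted p of limma 0.0397 and 0.0454). It shrank to -1.60 (adjusted p 0.259) and -1.40 (adjusted p 0.231) without wild-type replicate 3. Grb10 varied widely between the lines of the series, from 2.37 to 3.21 FPKM in Del(CBS1-2) to 94.97 to 168 FPKM in Del(CBS1-5). The Del(CBS1-5) cells were derived from blastocysts of mice kept in back cross with BL6 and CBA hybrids. They were not edited from the wild-type mES cells, and the part of this origin in the level was not tested.

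H19, an imprinted non-coding RNA (chromosome 7, 142575529 to 142578143, minus strand), was higher in Del(CBS2). It rose at 96 h from 154, 136 and 216 FPKM to 399 and 400 FPKM, a log2 fold change of 1.27 (SE 0.23, adjusted p of limma 0.0125). At 120 h, it was measured at 245, 254 and 449 FPKM in wild type and at 588 and 593 FPKM in Del(CBS2), 0.96 higher on the log2 scale (SE 0.23, adjusted p 0.0755). Without wild-type replicate 3, H19 passed at both stages (1.46, adjusted p 0.00357, and 1.24, adjusted p 0.00931). Wild-type replicate 4, which was not among the controls, had 377 FPKM at 96 h.

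Of the 29 imprinted genes tested, H19 and Grb10 passed the threshold at 96 h and Grb10 at 120 h. The median log2 fold change of the list was 0.12 at 96 h and 0.29 at 120 h, beside -0.03 and 0.00 over all genes, and it was 0.00 and 0.05 without wild-type replicate 3. Before adjustment, 10 members had a p under 0.05 at 96 h and 11 at 120 h. Mest, a paternally expressed gene of an enzyme of the hydrolase fold, was at 938, 974 and 588 FPKM in wild type and at 1557 and 1682 FPKM in Del(CBS2) at 120 h (0.99, SE 0.25, adjusted p of limma 0.105). Peg10, an imprinted gene derived from a retrotransposon, was at 72.1, 65.4 and 24.8 FPKM against 94.2 and 93.0 FPKM at 96 h (0.94, SE 0.27, adjusted p 0.149). In both genes the mutants lay above all controls, with replicate 3 as the lowest.

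The remaining genes that rose at 96 h were of several kinds. Cfc1, which encodes a co-receptor for the signalling protein Nodal, had the largest rise, from 0.276, 0.278 and 0.415 FPKM in wild type to 3.04 and 3.39 FPKM in Del(CBS2) (2.99, SE 0.63, adjusted p of limma 0.0383). Nrp1, a receptor for semaphorins and vascular growth factor, rose from 0.858, 0.475 and 0.266 FPKM to 2.79 and 2.14 FPKM (2.12, SE 0.48, adjusted p 0.0399). Gata3, a zinc-finger transcription factor, rose from 0.198, 0.147 and 0.0359 FPKM to 0.596 and 0.438 FPKM (1.51, SE 0.34, adjusted p 0.0397). The groups of these 3 genes overlapped at 120 h, where the log2 fold changes were 0.23, -0.06 and 0.15, all with an adjusted p of 1. Without wild-type replicate 3 their changes at 96 h were 3.14, 1.78 and 1.17 and missed the threshold (adjusted p 0.0865, 0.202 and 0.229). The 2 wild-type libraries of the time course at 96 h lay on either side of the mutants, with 0.453 and 7.82 FPKM for Cfc1, 0.653 and 7.09 FPKM for Nrp1 and 0.202 and 0.743 FPKM for Gata3.

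Ssr1, a subunit of the complex beside the protein translocation channel of the endoplasmic reticulum, varied little among the controls. It was measured at 26.3, 25.2 and 24.98 FPKM in wild type and at 41.4 and 40.0 FPKM in Del(CBS2) at 96 h (0.67, SE 0.13, adjusted p of limma 0.0248), and at 120 h the groups overlapped. Prkaa2, the catalytic subunit of the energy sensor AMPK, rose from 0.445 to 0.559 FPKM in the controls to 0.899 and 0.924 FPKM (0.77, adjusted p 0.0423). The histone H2A genes Hist1h2an and Hist1h2ap rose by 1.41 and 1.14 on the log2 scale. H2A genes have near-identical copies, and counting can split or drop reads that match several copies, so that these values are uncertain. For Hist1h2an the controls were at or under 3 fragments (0.274, 0.322 and 0.331 FPKM), and the mutants were at 1.53 and 0.623 FPKM. The mean of the mutants was 2.04-fold above the level that 3 fragments give in wild type (0.527 FPKM). Mutant replicate 2 was close to that level. H2ac18 was listed at 0 in all controls and at 0.467 and 0.617 FPKM in the mutants at 96 h (adjusted p of limma 0.0125). It kept its call without wild-type replicate 3 (adjusted p of limma 0.0374). H2ac19, which filled the list of rises, was listed at 0 in all controls and at 0.428 and 0.579 FPKM in the mutants. It missed the threshold (adjusted p of limma 0.0718).

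Genes that were called lower at 96 h alone were mostly expressed at moderate levels and fell by less than 2-fold. Trim2, a ubiquitin ligase, fell from 1.63, 1.86 and 2.47 FPKM to 0.916 and 0.756 FPKM (-1.14, SE 0.23, adjusted p of limma 0.0272). Gabpa, the DNA-binding subunit of an ETS transcription factor, fell from 22.7, 22.9 and 24.5 FPKM to 13.8 and 14.5 FPKM (-0.72, SE 0.16, adjusted p 0.0397). At 120 h, its mutants were at 24.1 and 24.8 FPKM and the controls at 23.9, 21.1 and 26.2 FPKM. Fdxacb1, Atpaf1 (an assembly factor of the mitochondrial ATP synthase) and Mtdh fell by 0.72, 0.74 and 0.85 on the log2 scale. The unconventional myosin Myo5b fell by 0.87, from 0.383, 0.403 and 0.564 FPKM to 0.208 and 0.189 FPKM. Tgif1, a homeobox repressor of TGF-beta signalling, and Ide, the insulin-degrading enzyme, fell by 0.35 and 0.37, both outside the naming rule and chosen after their values were seen. Myo5b and Ide also had both mutants below all controls at 120 h, by -0.31 and -0.25 (adjusted p of limma 0.823 and 0.347). Mtdh was uneven between the mutants, with 23.8 FPKM in replicate 1 and 43.5 FPKM in replicate 2 against 45.3, 61.3 and 71.1 FPKM. Without wild-type replicate 3, Trim2, Gabpa and Fdxacb1 missed the threshold (adjusted p 0.0865, 0.0865 and 0.0925), and so did Ssr1 (0.66, adjusted p 0.0865), Prkaa2 (0.70, adjusted p 0.162), Hist1h2ap (0.89, adjusted p 0.115), Myo5b (-0.72, adjusted p 0.199), Mtdh (-0.71, adjusted p 0.184) and Atpaf1 (-0.58, adjusted p 0.240), while Hist1h2an kept its call (1.45, adjusted p 0.0204).

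At 120 h, Mrpl3 and Fggy were the called genes that also passed when small RNA genes and genes listed at 0 were left out. Mrpl3, a protein of the mitochondrial ribosome (chromosome 9, 105053239 to 105079888, plus strand), was at 23.6, 22.8 and 23.6 FPKM in wild type and at 42.7 and 39.9 FPKM in Del(CBS2) (0.82, SE 0.15, adjusted p of limma 0.0144). At 96 h, it was measured at 21.9, 21.6 and 26.9 FPKM against 20.9 and 21.2 FPKM (-0.15, 95% interval -0.46 to 0.16). A level near that of the mutant was found in single libraries of other lines at 120 h. It was 38.3 FPKM both in Del(CBS1) and in the blastocyst-derived Del(CBS1-5), where the second library had 23.6 and 22.7 FPKM. Fggy, a carbohydrate kinase (chromosome 4, 95557507 to 95926939, plus strand), fell from 5.13, 4.17 and 4.21 FPKM to 3.03 and 2.72 FPKM (-0.62, SE 0.09, adjusted p 0.000578). At 96 h, Fggy was at 8.65, 8.40 and 7.69 FPKM in wild type and at 6.90 and 6.50 FPKM in Del(CBS2) (-0.29, adjusted p 0.203). Both genes kept their call without wild-type replicate 3 (adjusted p 0.0282 for Mrpl3 and 0.00057 for Fggy).

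Other genes that rose at 120 h were Lgals1, which encodes the sugar-binding protein galectin 1, with 24.5, 24.9 and 21.5 FPKM against 39.0 and 34.7 FPKM (0.64, SE 0.14, adjusted p of limma 0.0454), the tetraspanin Tspan13 (0.37, adjusted p 0.0454) and the neuronal membrane protein Astn2 (1.07, from 0.356 to 0.569 FPKM to 1.22 and 0.886 FPKM). Defa3, one of many similar defensin genes, was called at 1.17, with levels under 1 FPKM in all 5 libraries. The list of rises was filled with genes that missed the threshold. These were Enox2 (0.39, adjusted p of limma 0.0512), Errfi1 (0.32, adjusted p 0.0527), Mgst3 (0.58, adjusted p 0.0625) and H19. Genes that fell were Dgkk, a diacylglycerol kinase on the X chromosome, with 2.44, 2.33 and 2.13 FPKM against 1.46 and 1.40 FPKM (-0.65, SE 0.13, adjusted p 0.0262), the kinase Stk39 (-0.37), the sorting nexin Snx19 (-0.27) and the amino acid transporter Slc7a6 (-0.23). Snx19 and Slc7a6 are outside the naming rule and were chosen after their values were seen. Without wild-type replicate 3, Dgkk kept its call (adjusted p 0.0275), and Defa3, Astn2, Lgals1, Stk39 and Tspan13 lost it (adjusted p 0.264, 0.0948, 0.176, 0.0877 and 0.186).

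**Figure D3:**
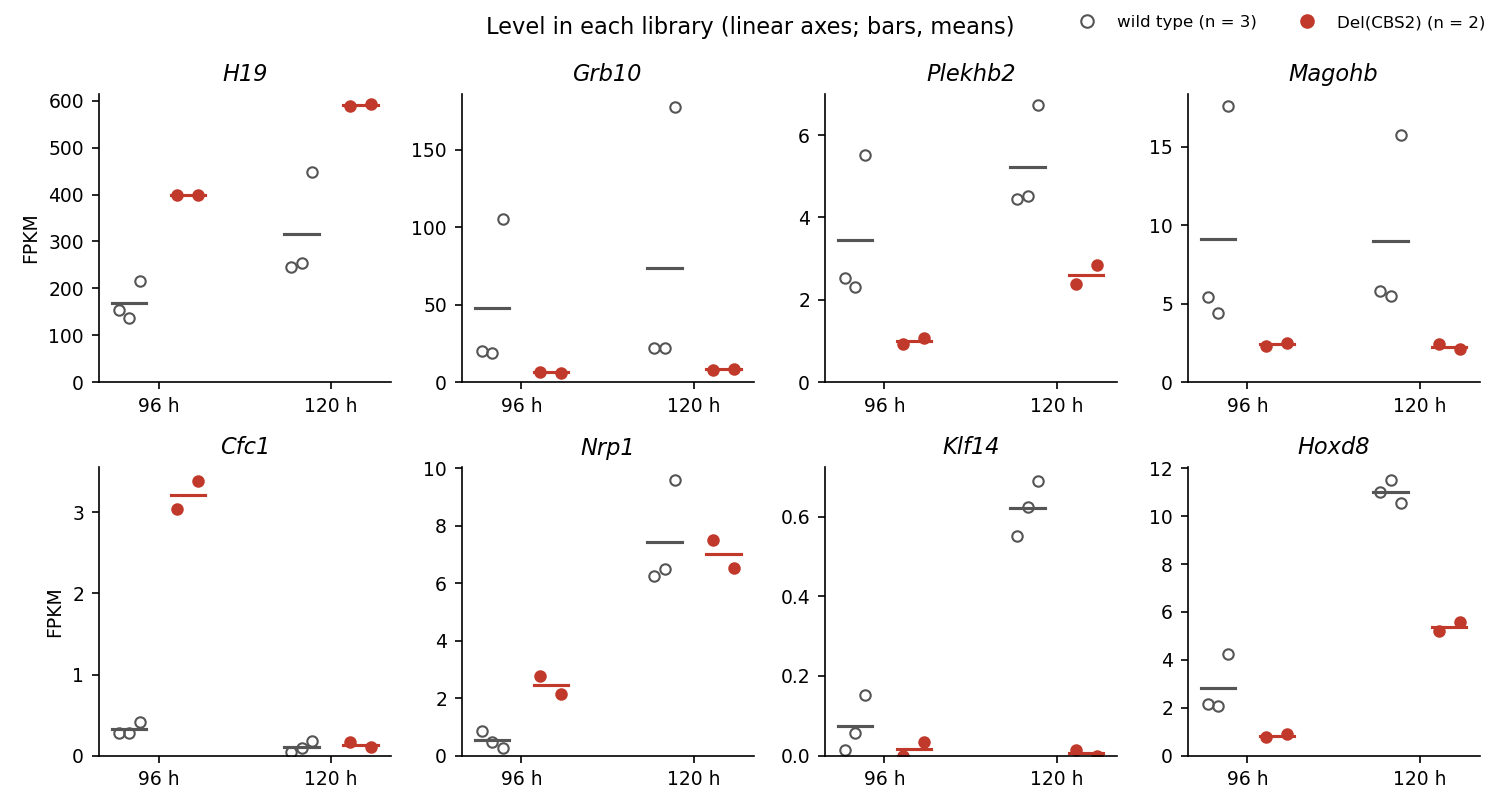
FPKM in each library at 96 h and 120 h for H19, Grb10, Plekhb2, Magohb, Cfc1, Nrp1, Klf14 and Hoxd8, on linear axes with a scale of its own for each gene. Open circles are the wild-type replicates 1, 2 and 3 from left to right, filled circles the Del(CBS2) replicates, and bars are means. The right-most open circle, replicate 3, is the highest control of Grb10 at 178 FPKM and of Magohb at 15.7 FPKM at 120 h.

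Klf14 and a few genes listed at 0 need a separate account. Klf14, a Krüppel-like transcription factor, was at 0.552, 0.625 and 0.690 FPKM in wild type at 120 h, and at 0.0131 and 0 FPKM in Del(CBS2), where both values were at or under 3 fragments. Mutant replicate 1 held about 1 fragment, and replicate 2 was listed at 0. If that 0 is a low level, Klf14 was at least 13.5-fold lower than the wild-type mean (0.622 FPKM). This bound uses the level that 3 fragments in the shallower library give (0.046 FPKM). The test gave an adjusted p of limma of 7.49e-08, and the call held without wild-type replicate 3. At 96 h, Klf14 was low in all libraries, at most 0.152 FPKM. Paqr4 was listed at 0 in both mutants at 96 h and at 0.843, 1.23 and 1.17 FPKM in wild type, but at 120 h the mutants had 2.06 and 1.70 FPKM against 1.62, 1.53 and 1.92 FPKM. Paqr4 overlaps the gene Pkmyt1 on the other strand. Itpk1, Atf5 and mt-Nd4l were listed at 0 in both mutants at 120 h and above 10 FPKM in all controls, and at 96 h Atf5 and mt-Nd4l were listed at 0 in all 5 libraries. No fold is given for these genes. The protein-coding gene 9530077C05Rik was listed at 0 in all controls and at 1.29 and 1.495 FPKM in the mutants at 120 h. Gimap6, the largest called rise by the naming rule at 120 h, was at 0, 0 and 0.109 FPKM in wild type. Its mutants were at 0.763 and 0.516 FPKM (adjusted p of limma 0.0144). The call of Gimap6 held without wild-type replicate 3 (adjusted p of limma 0.00439).

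A change of the mutant effect between 96 h and 120 h was tested as a contrast of the same fit, and 3 genes passed (0.0175% of those tested), 2 with a higher effect at 120 h (0.0117%) and 1 with a lower one (0.00583%). These were Paqr4, 9530077C05Rik and Klf14, each with a library at 0. When genes listed at 0 were left out, 0 genes passed in this limma contrast. Of the 15356 genes then tested, 867 had an unadjusted p under 0.05. With 2 mutant libraries at each stage, no further difference between the stages was detected.

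Lists of cell type and pathway genes were read by their counts and medians. Apart from H19, Grb10, Gata3 and mt-Nd4l, no member of the lists passed the threshold at either stage. At 96 h, both mutants lay above all 3 controls for 9.76% of all genes tested and below them for 18.3%. At 120 h, these shares were 13.3% and 11.8%.

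Genes of cardiac progenitors were at low levels, with most measured higher in both mutants at 96 h. For 6 of the 10 tested members, both mutants were above all controls and for 0 below, with a median log2 fold change of 1.05. Hand1, a transcription factor of heart and lateral mesoderm, was at 0.206, 0.0992 and 0.252 FPKM in wild type and at 1.63 and 1.18 FPKM in Del(CBS2) (2.42, SE 0.76, adjusted p of limma 0.211). Isl1, a LIM homeobox factor of cardiac progenitors, was at 1.01, 0.815 and 0.870 FPKM against 2.25 and 2.05 FPKM (1.18, adjusted p 0.338). The summed level of 5 cardiac markers was 1.56 to 2.06 FPKM in wild type and 5.87 to 6.09 FPKM in Del(CBS2), and at 120 h it was 2.24 to 2.90 and 3.56 to 5.41 FPKM. Over the whole list at 120 h, 1 of the 10 tested members had both mutants above all controls and 1 had both below, with a median of 0.20. The median of the list at 96 h remained at 0.85 without wild-type replicate 3.

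A similar direction was seen for endoderm and notochord genes at 96 h, where 11 of 17 tested members had both mutants above all controls and 1 had both below, with a median of 0.61. Gata6, a transcription factor of endoderm and cardiac mesoderm, was at 1.29, 0.917 and 0.571 FPKM in wild type and at 3.88 and 3.56 FPKM in Del(CBS2) (1.96, SE 0.70, adjusted p of limma 0.297). Sox17, which specifies endoderm, was at 3.77, 2.72 and 1.48 FPKM against 5.65 and 5.13 FPKM (1.09, adjusted p 0.666). Of 18 genes of Nodal and BMP signalling, 8 had both mutants above all controls, among them the BMP targets Id1 with 18.8, 19.1 and 16.9 FPKM against 34.6 and 23.6 FPKM and Id3 with 33.8, 34.9 and 30.9 FPKM against 53.1 and 44.3 FPKM. None of these genes passed the adjusted test.

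Neuro-mesodermal progenitors, the cells at the posterior end that give rise to spinal cord and somites, showed the opposite direction. At 96 h, 8 of the 12 genes of their list had both mutants below all controls and 0 above, with a median of -0.56, and the same counts were found at 120 h with a median of -0.32. Nkx1-2, a homeobox gene of these cells, was at 41.6, 45.7 and 54.8 FPKM in wild type and at 30.9 and 27.5 FPKM in Del(CBS2) at 96 h (-0.69, SE 0.37, adjusted p of limma 0.544). Fgf17, a growth factor of the posterior end, was at 9.24, 12.6 and 20.1 FPKM against 6.75 and 6.57 FPKM (-0.98, SE 0.39, adjusted p 0.339). T, the mesoderm factor Brachyury, was at 76.7, 87.5 and 122 FPKM against 70.0 and 65.8 FPKM. The medians were -0.36 and -0.23 when wild-type replicate 3 was left out.

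Genes of axial elongation followed them, with both mutants below all controls for 8 of 11 members at 96 h (median -0.44), above them for Isl1, and for 7 of 11 at 120 h (median -0.28). Cdx4, a caudal homeobox factor upstream of Hox genes, was at 13.9, 17.3 and 27.8 FPKM in wild type and at 6.55 and 5.68 FPKM in Del(CBS2) at 96 h (-1.61, SE 0.72, adjusted p of limma 0.432). Lin28b, an RNA-binding protein of early axial progenitors, was at 18.6, 18.8 and 22.3 FPKM against 14.5 and 14.7 FPKM (-0.44, SE 0.13, adjusted p 0.16). This median was -0.19 without wild-type replicate 3. Of 18 genes of FGF signalling, 10 had both mutants below all controls at 96 h (median -0.23), such as the target Spry4 with 12.54, 13.8 and 18.3 FPKM against 9.48 and 8.72 FPKM. The list of neuro-mesodermal progenitors shares Cdx2 with that of axial elongation, Fgf17 with that of FGF signalling and Wnt3a with that of Wnt genes. The counts of these lists are therefore not independent.

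Several genes of the other Hox clusters were also at lower levels in Del(CBS2) at 96 h. Of 7 HoxC genes tested, 5 had both mutants below all controls, with Hoxc8 at 9.21, 11.3 and 15.3 FPKM in wild type and at 4.04 and 3.95 FPKM in Del(CBS2) (-1.53, SE 0.63, adjusted p of limma 0.371). In HoxB, 5 of 9 did so, and these were Hoxb6, Hoxb7, Hoxb8 and Hoxb9, with differences of -0.52 to -1.32, and Hoxb4, with -0.06. Hoxb9 was at 49.7, 60.5 and 61.9 FPKM in wild type and at 23.7 and 22.1 FPKM in Del(CBS2) (-1.32, SE 0.54, adjusted p 0.368). In HoxA, 2 of 10 genes tested had both mutants below all controls, among them Hoxa9, and 1 had both above. The anterior gene Hoxb1 was at 99.2, 99.8 and 115 FPKM against 104 and 104 FPKM. At 120 h, Hoxb9 was at 98.0, 96.2 and 76.8 FPKM against 69.7 and 78.3 FPKM, and the groups overlapped. Both mutants were below all controls at this stage for 4 of 10 HoxA, 4 of 9 HoxB and 3 of 7 HoxC genes, beside 11.8% of all genes. They were above all controls for 1 HoxA and 1 HoxB gene. The medians of the 3 lists were -0.23, -0.20 and -0.32.

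At 120 h, the list with the largest median was that of endothelium and blood (1.21), with both mutants above all controls for 6 of its 12 tested members and below for 1. The 2 mutant libraries were far apart. Cdh5, the cadherin of endothelial junctions, was at 0.0987, 0.107 and 0.133 FPKM in wild type and at 1.89 and 0.255 FPKM in Del(CBS2) (1.98, SE 0.64, adjusted p of limma 0.353). Kdr, the receptor of vascular growth factor, was at 0.204, 0.228 and 0.564 FPKM against 2.69 and 0.478 FPKM, and Cldn5, a tight-junction protein of vessels, at 0.267, 0.490 and 0.468 FPKM against 3.87 and 0.708 FPKM. In each of these genes mutant replicate 1 was several times higher than mutant replicate 2. The summed level of 5 endothelial markers was 1.55 to 3.83 FPKM in wild type, and 7.92 and 2.57 FPKM in the mutants. Genes of the integrated stress response were lower, with both mutants below all controls for 9 of 15 and a median of -0.27, as for the amino acid enzyme Asns with 69.6, 63.6 and 80.9 FPKM against 53.8 and 54.9 FPKM. Of 21 Wnt targets and ligands, 10 had both mutants below all controls and 0 above (median -0.22), such as Notum and Znrf3, inhibitors of the Wnt pathway. The medians of the stress response and Wnt lists were -0.16 and -0.13 when wild-type replicate 3 was left out.

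Lists of pluripotent and 2-cell-like genes depended on wild-type replicate 3. At 96 h, the median of 16 genes of naive pluripotency was -0.46 and that of 10 genes of 2-cell-like cells -0.68. Without replicate 3, they were 0.43 and 0.22. At 120 h, they were -0.11 and 0.35, and without replicate 3, 0.65 and 1.18. Without replicate 3, both mutants at 120 h were above the controls for 13 of the 16 naive pluripotency genes and below for 0. Over all genes, 23.8% were then above and 19.6% below. Pou5f1, the core factor of pluripotency, was at 4.92, 4.95 and 58.6 FPKM in wild type at 120 h and at 9.32 and 9.99 FPKM in Del(CBS2), above replicates 1 and 2 and below replicate 3.

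**Figure D4:**
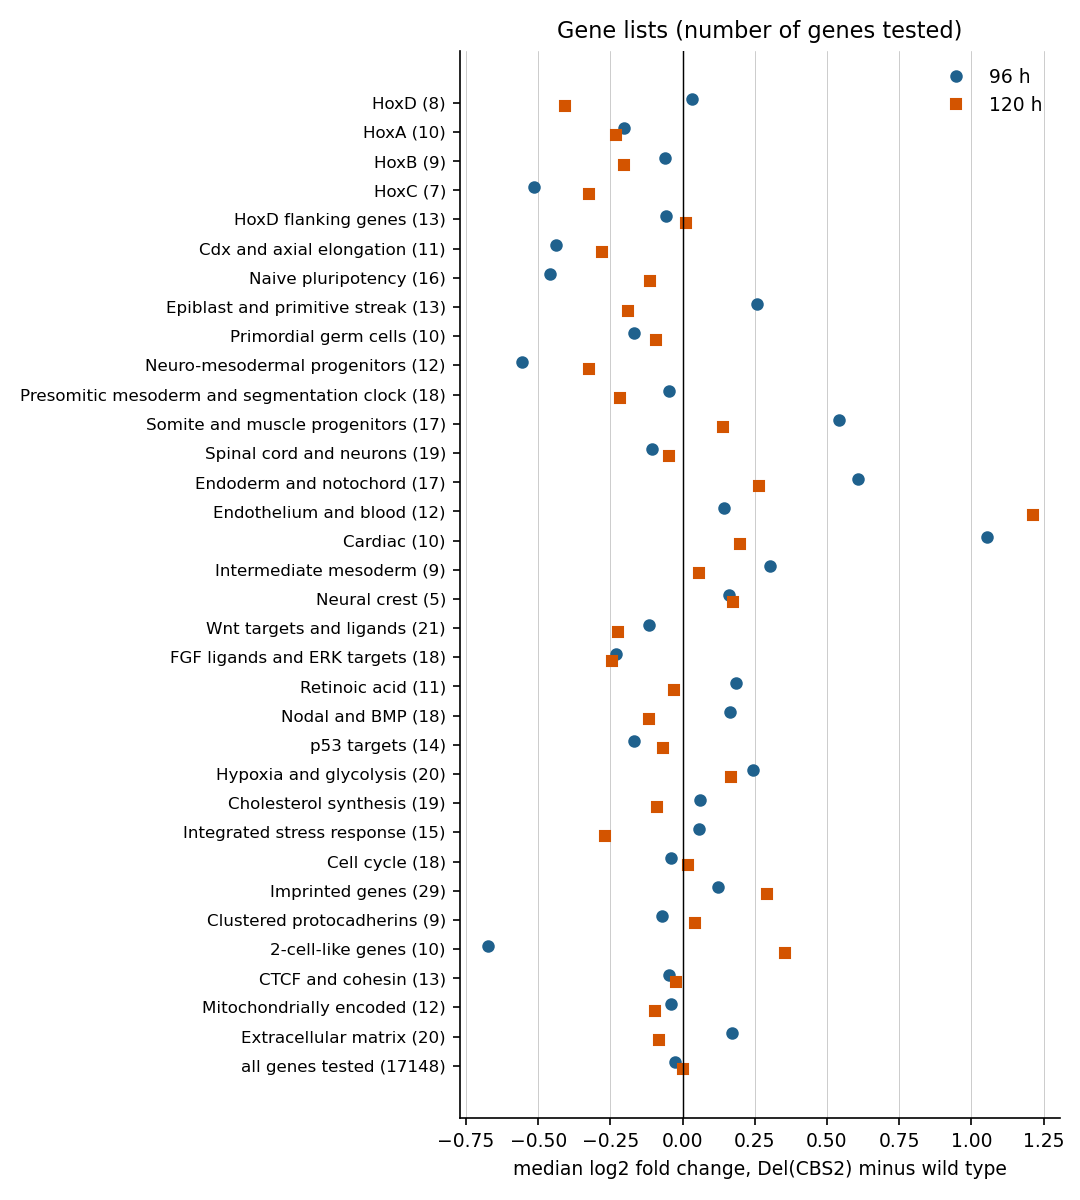
Median log2 fold change of each gene list, Del(CBS2) minus wild type, at 96 h (circles) and 120 h (squares), with the number of tested genes in brackets and all genes tested in the last row. Cardiac genes reach 1.05 at 96 h and genes of endothelium and blood 1.21 at 120 h, while neuro-mesodermal progenitor genes lie at -0.56 and -0.32.

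Del(CBS2) was then compared directly with the most similar lines, Del(CBS1), which lacks the neighbouring CTCF site, and Del(CBS1-2), in which CBS2 was deleted in Del(CBS1) cells. Both contrasts use the same Del(CBS2) libraries, with 2 libraries of each line per stage. The limma contrasts called 569 genes against Del(CBS1) at 96 h (3.32%), 160 higher (0.933%) and 409 lower (2.39%) in Del(CBS2). Against Del(CBS1-2) at 96 h, they called 873 (5.09%), 285 higher (1.66%) and 588 lower (3.43%). At 120 h, 328 genes were called against Del(CBS1) (1.91%), 172 higher (1%) and 156 lower (0.91%), and 344 against Del(CBS1-2) (2.01%), 235 higher (1.37%) and 109 lower (0.636%). With median centring, the share of higher calls was 39.2% in place of 28.1% against Del(CBS1) at 96 h and 54.6% in place of 68.3% against Del(CBS1-2) at 120 h. When calls with a library at 0 and small RNA genes were left aside, 510, 800, 250 and 275 were left, in the order given, of which 383, 534, 187 and 215 changed by less than 2-fold. The distance of Del(CBS2) libraries to the other lines was 0.130 to 0.164 for Del(CBS1) and 0.134 to 0.145 for Del(CBS1-2) at 96 h, against 0.102 to 0.130 for wild-type replicates 1 and 2 and up to 0.214 for replicate 3. Leaving out 1 library lowered the counts to between 123 and 247 against Del(CBS1) and between 231 and 428 against Del(CBS1-2) at 96 h, and to 62 to 171 and 55 to 100 at 120 h.

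Within HoxD, the lines were set apart at 96 h on both sides of CBS1. Hoxd1 was at 10.1 and 9.49 FPKM in Del(CBS2), 3.88 and 4.52 FPKM in Del(CBS1) and 2.96 and 2.34 FPKM in Del(CBS1-2), and hence higher in Del(CBS2) by 1.21 and 1.86 on the log2 scale (adjusted p of limma 0.00224 and 4.67e-06). Hoxd8 was lower in Del(CBS2), at 0.767 and 0.909 FPKM against 6.75 and 7.59 FPKM in Del(CBS1) (-2.96, SE 0.49, adjusted p 0.000696) and 4.32 and 3.87 FPKM in Del(CBS1-2) (-2.16, adjusted p 0.00692). Hoxd9 differed from Del(CBS1-2), at 1.17 and 1.08 FPKM against 7.27 and 6.65 FPKM (-2.53, adjusted p 0.00679), and from Del(CBS1) by -0.66 (adjusted p 0.763). At 120 h, the contrasts of Hoxd1, Hoxd8 and Hoxd9 were not past the threshold (adjusted p 0.277 to 1).

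Outside HoxD, genes of the posterior end were lower in Del(CBS2) than in both lines at 96 h. Cdx2 was at 46.8 and 42.3 FPKM in Del(CBS2), 101 and 104 FPKM in Del(CBS1) (-1.20, SE 0.34, adjusted p of limma 0.0434) and 119 and 123 FPKM in Del(CBS1-2) (-1.45, adjusted p 0.00958), with the wild type between them at 59.5, 65.2 and 76.1 FPKM. Hoxb9 was lower by 2.04 and 2.07 on the log2 scale (adjusted p 0.0483 and 0.032), and the Wnt inhibitor Notum was at 7.52 and 7.50 FPKM against 31.2 and 32.1 FPKM in Del(CBS1) (-2.06, adjusted p 0.0104) and 36.5 and 36.8 FPKM in Del(CBS1-2) (-2.27, adjusted p 0.00316). Wild-type Notum was at 13.4, 17.2 and 15.0 FPKM, again between Del(CBS2) and the other lines. In the list of neuro-mesodermal progenitors, 3 of 12 genes were called lower against Del(CBS1) and 8 of 12 against Del(CBS1-2), and 0 were called higher.

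The lines also differed in estimated age at 96 h, which was 99 h in both Del(CBS2) libraries, 100 and 93 h in Del(CBS1) and 92 h in both Del(CBS1-2) libraries. With the time course at the estimated age subtracted, 370 genes were called against Del(CBS1) and 637 against Del(CBS1-2). The part of age in the posterior and somite genes named here was not tested.

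Somite genes took the other direction against Del(CBS1-2), with 9 of 17 called higher in Del(CBS2), among them Meox1, Pax3, Twist1 and Tcf15, and 0 lower. Against Del(CBS1), 1 of them was called, the forkhead factor Foxc2, at 57.5 and 50.2 FPKM against 24.0 and 27.1 FPKM (1.07, adjusted p of limma 0.0488). Osr1, a factor of intermediate mesoderm, was higher than in both lines, at 4.47 and 3.62 FPKM against 0.713 and 0.556 FPKM in Del(CBS1) (2.50, adjusted p 0.00733) and 0.722 and 0.885 FPKM in Del(CBS1-2) (2.195, adjusted p 0.0128). Plekhb2 was lower than in both lines as well (-1.49 and -1.52, adjusted p 0.000179 and 6.55e-05).

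At 120 h, pluripotency genes were detected in Del(CBS2) and nearly not in the other lines. Of 16 genes of naive pluripotency, 6 were called higher against each line, the same 6 in both (Nanog, Pou5f1, Zfp42, Dppa2, Dppa4 and Dppa5a). Pou5f1 was at 9.32 and 9.99 FPKM in Del(CBS2), 0.612 and 0.848 FPKM in Del(CBS1) (3.57, SE 0.63, adjusted p of limma 0.00248) and 0.792 and 0.812 FPKM in Del(CBS1-2) (3.43, adjusted p 0.00318). Nanog was at 2.99 and 3.04 FPKM against 0.0652 and 0.129 FPKM (4.002, adjusted p 0.00508) and 0.198 and 0.277 FPKM (3.22, adjusted p 0.0239). The wild-type levels at this stage were 1.75, 1.51 and 11.5 FPKM for Nanog, so that Del(CBS2) was above replicates 1 and 2 and below replicate 3. The 2-cell-like genes, mostly Zscan4 copies that share sequence and are therefore uncertain one by one, were called higher for 7 of 10 against Del(CBS1) and 6 of 10 against Del(CBS1-2). Fggy was lower in Del(CBS2) than in both lines at 120 h (-0.91 and -1.14, adjusted p 1.56e-06 and 3.13e-09), and Lgals1 higher (0.89 and 0.82, adjusted p 0.00248 and 0.00504). Mrpl3 was higher than in Del(CBS1-2) (0.96, adjusted p 0.00166) but not detectably so than in Del(CBS1) (0.46, adjusted p 0.173), in which its 2 libraries differed.

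**Figure D5:**
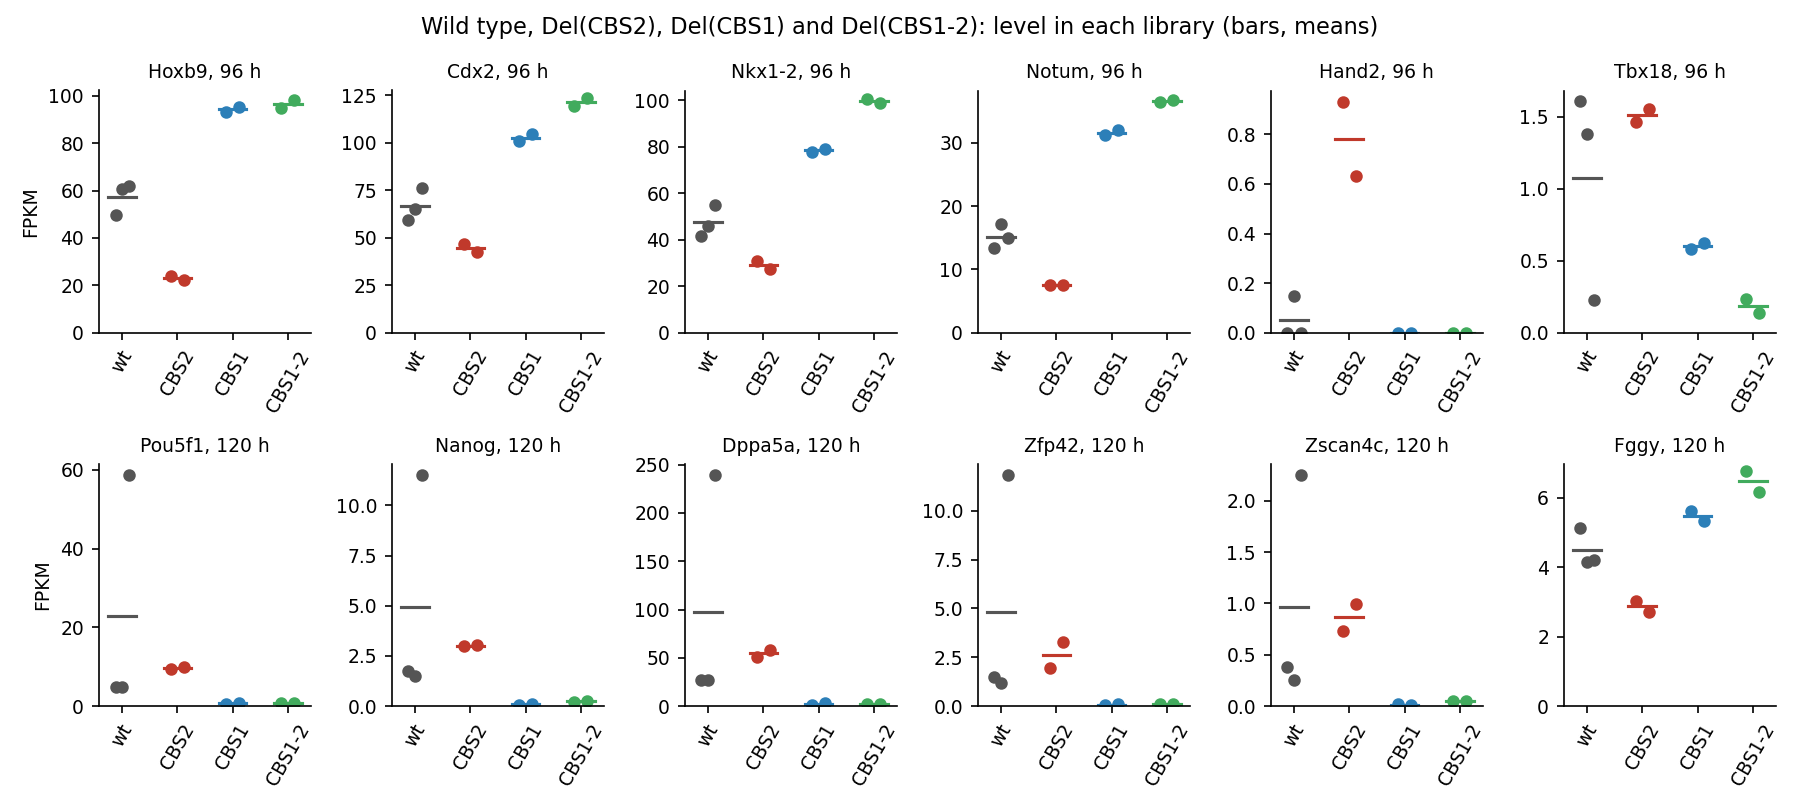
FPKM in each library of wild type, Del(CBS2), Del(CBS1) and Del(CBS1-2) at 96 h (upper row) and 120 h (lower row) for genes that differed between Del(CBS2) and at least 1 of the other lines, on linear axes with bars for means. Cdx2 at 96 h reads 42.3 and 46.8 FPKM in Del(CBS2) and over 100 FPKM in both other lines, with the wild-type replicates in between.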

How the data were processed

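RNA-seq was measured in 61 libraries, of which 10 were compared here. Per the labels and the study's methods, the authors made stranded poly-A libraries, sequenced paired ends, trimmed them with cutadapt 1.16, aligned them to mm10 with STAR 2.7.7a, kept uniquely mapped reads and ran Cufflinks 2.2.1. Pseudogene sums were far higher in the 10 compared libraries than in wild-type replicate 4 and the time course. In the 10 libraries, low levels came to whole fragments for 75.6 to 78.8% of the genes used, against 98.0 and 97.7% in wild-type replicate 4. Whether the filter for uniquely mapped reads was applied to all libraries alike was not tested. The deposited values are FPKM per gene, which the authors had scaled to mapped fragments and transcript length. Groups and replicate numbers came from the titles. That the libraries are separate cultures is not stated in the labels, so p-values measure the spread between these libraries, which may be technical.

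Log2(FPKM + 0.1) of all 61 libraries was fitted with limma 3.58.1 (R 4.3.3), with 1 coefficient for each of 30 conditions, over genes with a mean of at least 1 FPKM in at least 1 condition. P-values were two-sided and Benjamini-Hochberg adjusted over all genes tested, with a threshold of 0.05. Intervals are at 95 percent. The study's methods give no test across genes. Distances and ages were compared by exact permutation tests, which cannot go below 0.1 with 2 against 3 libraries. Depth was inferred from the steps that single fragments make in FPKM, and 3 fragments was the floor for detection. Such floors allow for counting error alone, and reads that carry no molecular identifier may copy 1 molecule. The fit was tested on simulated data for 14158 genes: at 96 h it recovered 74% of 1.5-fold and 96% of 2-fold changes, and at 120 h 64% and 98%. Of the genes it called, 12 of 196 at 96 h and 10 of 190 at 120 h had no planted change. Changes were planted only in genes at higher levels, and the noise of a gene was of equal size in every library. An outlying control such as wild-type replicate 3 and changes of low genes were not modelled. The shares therefore do not give the recovery in the real libraries.

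The members and gene lists were chosen with earlier results of these data known. The genes named were, at each stage, the 10 largest rises and the 10 largest falls among called genes with an ordinary symbol whose groups did not overlap, filled where fewer passed with those of smallest p, plus genes called at both stages, genes whose effect differed between stages, called members of lists, the Hoxd genes, and the 3 largest in each direction of each contrast with another line. Other list members were named as examples after their values were seen. Alternatives were a pseudocount of 1, no filter and a filter at 5 FPKM, other scalings, trended robust moderation, fewer or more libraries, a replicate block and correction for age. Same-numbered replicates did not deviate together across genotypes (r = 0.03 at 96 h and 0.0667 at 120 h).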

Additional observations from a re-analysis of the deposited data

Results flagged for a closer look

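The effect of Del(CBS2) differed between 96 h and 120 h for 3 genes, as tested by a contrast in limma. For Klf14, subtracting the 96 h effect from the 120 h effect gave -2.25 on the log2 scale, with the mutants at or under 3 fragments at 120 h. For Paqr4, it was 3.69, with both mutants listed at 0 at 96 h and at 2.06 and 1.70 FPKM at 120 h. For 9530077C05Rik, it was 3.90, with all 5 libraries listed at 0 at 96 h and both mutants above 0 at 120 h. The values of Paqr4 and 9530077C05Rik rest on groups at 0, so that the pseudocount of 0.1 sets them and they are neither folds nor bounds. Over the alternatives, that of Paqr4 ranged from 1.15 to 3.84. All 3 genes involve a library listed at 0 without a mark of failure in the authors' tables, and why they are listed at 0 was not tested. When wild-type replicate 3 was left out at 96 h or at 120 h, Paqr4 and Klf14 still passed the threshold and 9530077C05Rik did not.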

How the results depend on the processing

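The counts of called genes depended on the fit. In place of 55 calls at 96 h, there were 25 with no filter on low values, 33 with a filter at 5 FPKM, 11 from the 10 compared libraries alone, 19 with trended robust moderation, 9 without small RNA genes and genes listed at 0, and 30 with wild-type replicates 1 and 2 averaged. The 43 calls at 120 h became 142, 13, 11, 17, 2 and 18 under these settings in the same order, 16 with median centring and 9 with the time course at the estimated age subtracted. For the difference of stages, 3 calls became 17 with no filter, 1 at 5 FPKM, 13 from the 10 libraries, 1 with age subtracted, 0 without small RNA genes and genes listed at 0, and 6 with averaging. Against Del(CBS1), the counts were 343 (96 h) and 191 (120 h) with wild-type replicate 4 added, 529 (120 h) with no filter and 370 (96 h) with age subtracted, and against Del(CBS1-2) at 120 h 164 with replicate 4 added. The causes of these shifts were not tested, except that a changed filter changes the genes tested.

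Leaving out 1 library gave 11 to 61 calls at 96 h (11 without wild-type replicate 3 and 28 without replicate 2), 15 to 38 at 120 h (23, 25 and 15 without wild-type replicates 1, 2 and 3), 2 to 32 for the difference of stages (26 to 32 without any 1 mutant library), 123 to 247 and 62 to 171 against Del(CBS1), and 231 to 428 and 55 to 100 against Del(CBS1-2), where each library left out lowered the count by over 1.5 times. A lone mutant library is then assumed to vary like the other groups. The difference in library distance took values between -0.0436 and 0.0328 at 96 h and between -0.0351 and 0.0296 at 120 h, positive only without wild-type replicate 3. The age difference lay between -1.5 h (without wild-type replicate 3) and 3 h at 96 h, and between -1.67 h and 0.333 h (without mutant replicate 1) at 120 h.

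The replicate numbers did not pair the samples, so that the replicate block is given here only. With the replicate block, 14 genes were called at 96 h, 21 at 120 h and 506 against Del(CBS1) at 120 h, and with the replicate block in the 10 compared libraries alone 10, 12 and, for the difference of stages, 15. Hoxd10 at 96 h was 0.17 with the replicate block.

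Among single genes, Hoxd genes near a difference of 0 changed sign. With replicate 4 added, Hoxd1 and Hoxd4 at 96 h were -0.10 and 0.064 and Hoxd3 at 120 h 0.17, and with age subtracted Hoxd1 and Hoxd3 at 96 h were -0.15 and -0.20. Leaving out 1 library gave -0.042 to 0.30 for Hoxd1, -1.05 to 0.32 for Hoxd9, -0.24 to 0.20 for Hoxd10, -0.12 to 0.049 for Hoxd4 and -0.16 to 0.42 for Hoxd13 at 96 h, and -0.055 to 0.27 for Hoxd13 and -0.17 to 0.016 for Hoxd3 at 120 h. The values besides the counts, distances and ages include those of single named genes. Over all alternatives, 1089 of these values kept their sign and their side of the threshold or moved little, and 34 moved further. Among the named genes, 380 values kept their sign and no longer passed, 18 newly passed and 17 changed sign. Depth limits statements on genes under about 3 fragments, such as Klf14 in the mutants.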

Other observations

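Some genes named above lie close to each other on a chromosome, which was seen after their values were known. Cfc1, which was higher in Del(CBS2) at 96 h, and Plekhb2, which was lower, are 306 kb apart on chromosome 1. Mest, which stood above all controls at 120 h without passing the adjusted test, and Klf14, which fell, are 208 kb apart on chromosome 6.

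The largest differences between Del(CBS2) and the other lines by the naming rule were nearly all genes with libraries listed at 0, namely Hoxa7, Hoxaas2, Tapbp, Smpd3, mt-Tk and Nit2 against Del(CBS1) at 96 h, Ndufb5 and Dnajc19 in place of Tapbp and Smpd3 against Del(CBS1-2) at 96 h, and mt-Nd4l, Dnajc19, Atf5, Gng3, Tmem243, Sdccag8, Mrpl27 and Nit2 in the contrasts at 120 h. The exception was the pluripotency gene Dppa5a, at 51.0 and 58.2 FPKM in Del(CBS2) and at 0.912 and 2.94 FPKM in Del(CBS1) at 120 h.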
